A study of Mus musculus with 10 samples.

Results

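The acrosome genes examined here were 10 genes chosen by name, Acrv1, Acr, Acrbp, Spaca1, Spaca3, Spaca7, Zpbp, Zpbp2, Dpy19l2 and Spata16. They were 10 of 28125 genes with RNA values and 10 of 30657 nuclear genes with accessibility values. Nuclei from mouse testes were profiled by simultaneous scRNA-seq and scATAC-seq at 11, 17 and 25 days post partum (dpp) in wild-type mice, and at 8 weeks in Cre/+ and Nfya-CKO mice, all on a C57BL/6J background. Cre/+ mice carried Stra8-Cre alone, and Nfya-CKO mice were Nfya fl/fl with Stra8-Cre, which deletes exons of Nfya in male germ cells from the spermatogonial stage onward. NFYA is the sequence-reading subunit of the transcription factor NF-Y. Each condition was a single library per assay, and each gene value was pooled over all libraries within a cell population, so no difference below has a replicate check and no p-value was computed.

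The acrosome is a secretory vesicle that caps the nucleus of the sperm head and releases its contents at fertilization. It is built after meiosis, when Golgi-derived vesicles of the round spermatid fuse into a granule that attaches to the nuclear envelope and then spreads over it. Part of its RNA is already made in pachytene spermatocytes, and loss of several acrosome genes gives round-headed sperm, a condition called globozoospermia.

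Values were available for 13 populations. The 9 germ cell populations named without a genotype, which held 9 cells of the Nfya-CKO library in all, were undifferentiated and differentiating spermatogonia (undiff. SpG, diff. SpG), preleptotene (pL), early leptotene to zygotene (eL/L/Z), leptotene to early pachytene (L/Z/eP), middle and late pachytene (mP/lP), diplotene (D), and the round (RS) and elongating (ES) spermatids. The others were Sertoli cells, other somatic cells, a group without a name, and spermatogonia of the Nfya-CKO library (SpG Nfya-CKO). Other somatic cells were mostly of the Nfya-CKO library, with 78.8% of 5883 cells in scRNA-seq. RNA is given as UMIs (counted molecules) per 10000 UMIs of a cell, averaged over the cells of a population, and accessibility as scATAC-seq signal per 1000000 over nuclear genes. Neither was divided by gene length, so levels are compared between populations and not between genes.

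The depth and make-up of the populations bear on every value below. The 5 scRNA-seq libraries held between 30227701 and 64967271 UMIs. The cell table had 45250 cells, of which 49 carried no library name. RS rested on 7325 cells, of which 77.0% were from Cre/+ and 22.9% from 25 dpp, while the Nfya-CKO library contributed no RS and no ES. Markers were highest where the labels place them for Zbtb16 in undiff. SpG (8.74 UMIs per 10000), Piwil1 in mP/lP (11.4), Prm1 in ES (40.8) and Sox9 in Sertoli cells (10.7). Those of diff. SpG did not single it out, since Kit was at 1.56 there and 2.09 in pL, and Dmrtb1 at 1.04 and 1.03. Sycp3, a leptotene and zygotene marker, was highest in mP/lP. Ccna1, a pachytene marker beside Piwil1, was highest in D, at 0.436 against 0.301 in mP/lP. Etv5, of undiff. SpG, was higher in other somatic cells (1.03) than in undiff. SpG (0.760). Gfra1, also of undiff. SpG, was at 1.20 in SpG Nfya-CKO and 1.08 in undiff. SpG. Nfya RNA was 1.11 UMIs per 10000 in SpG Nfya-CKO against 0.456 in undiff. SpG, so RNA of the targeted gene did not place this library below the controls. Its scATAC-seq signal at Nfya was the lowest of the 13 populations, at 109 per 1000000 against 140.0 in undiff. SpG, and the library is called by its label. A value per gene does not show which exons were read.

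Libraries also shared cell barcodes. Of 5152 scRNA-seq cells in the library labelled Nfya-CKO, 3813 (74.0%) had a barcode that also named a cell of the Cre/+ library, with a median of 1276 UMIs in the first and 9129 in the second. These included 78.3% of the 4633 other somatic cells and 175 (35.6%) of the 491 spermatogonia of that library. Among the 175 spermatogonia, 143 shared their barcode with a Cre/+ cell named diff. SpG. Between the 11, 17 and 25 dpp libraries the pairs shared from 621 to 853 barcodes, whereas any of these libraries shared at most 19 with either 8-week library. In scATAC-seq, 0.286% of 342825 barcodes were in more than 1 library. The pooled values could not be recomputed without these cells, and their part in the results was not tested.

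By role, the members fall into 4 groups. Spata16 (chr3:26637620-26983249) encodes a Golgi protein of the vesicles that form the acrosome, and Dpy19l2 (chr9:24557047-24696457) a protein of the inner nuclear membrane that anchors the acrosome to the nucleus. Zpbp (chr11:11279624-11464223) and Zpbp2 (chr11:98551097-98558665) encode paralogous zona pellucida binding proteins of the acrosome. Acr (chr15:89568326-89578853) encodes proacrosin, the serine protease precursor of the acrosomal matrix, and Acrbp (chr6:125049927-125063265) the protein that binds proacrosin. Acrv1 (chr9:36693220-36698845) encodes the matrix protein SP-10, Spaca1 (chr4:34024872-34050067) an acrosomal membrane protein, Spaca3 (chr11:80858363-80867814) a lysozyme-like protein and Spaca7 (chr8:12573036-12600739) a protein released from the acrosome. Coordinates are those of RefSeq for GRCm38.p6, the build that the study calls mm10.

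The promoters of these genes differed in sequence. Sequences of 250 bases before the start site were found for 9 of the 10 members in RefSeq promoters of GRCm38.p6. The number of CG dinucleotides in this window ranged from 0 in Acrv1 to 19 in Zpbp2, against a median of 6 over 32851 promoters. The window held 1 in Spaca7, 4 in Zpbp, 5 in Spaca3, 8 in Spata16, 11 in Acrbp, 11 in Dpy19l2 and 13 in Spaca1. This count was chosen as a measure after the accessibility values had been seen. Those of Acrv1 and Spaca7, with the fewest CG, and of Zpbp2, with the most, are shown because this count is set beside accessibility further on, with Acrbp as a case between them. Each is written 5′ to 3′ on the strand of the gene (the + strand for all 4), with CG in capitals.

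Acrv1, chr9:36692970-36693219: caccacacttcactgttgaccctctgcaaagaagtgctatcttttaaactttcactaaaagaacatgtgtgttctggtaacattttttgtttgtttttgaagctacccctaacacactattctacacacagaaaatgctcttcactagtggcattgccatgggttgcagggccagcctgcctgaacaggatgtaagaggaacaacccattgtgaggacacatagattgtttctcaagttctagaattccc

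Spaca7, chr8:12572786-12573035: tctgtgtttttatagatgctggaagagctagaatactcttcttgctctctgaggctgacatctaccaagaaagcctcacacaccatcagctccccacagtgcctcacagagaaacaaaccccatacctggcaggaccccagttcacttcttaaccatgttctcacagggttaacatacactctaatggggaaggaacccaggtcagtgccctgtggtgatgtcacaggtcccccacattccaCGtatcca

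Acrbp, chr6:125049677-125049926: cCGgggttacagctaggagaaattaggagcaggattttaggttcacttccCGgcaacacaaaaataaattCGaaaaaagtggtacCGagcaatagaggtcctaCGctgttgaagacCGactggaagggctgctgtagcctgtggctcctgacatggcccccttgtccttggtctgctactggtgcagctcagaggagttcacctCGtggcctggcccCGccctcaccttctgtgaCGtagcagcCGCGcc

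Zpbp2, chr11:98550847-98551096: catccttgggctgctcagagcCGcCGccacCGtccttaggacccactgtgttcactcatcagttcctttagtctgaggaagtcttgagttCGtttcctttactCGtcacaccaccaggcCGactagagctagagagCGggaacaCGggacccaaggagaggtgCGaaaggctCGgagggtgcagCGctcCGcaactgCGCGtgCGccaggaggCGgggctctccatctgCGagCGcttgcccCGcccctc

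None of the 250 bases of Acrv1 was part of a CG, while 19.7% of all promoters had as many as Zpbp2 or more. Short motifs, of NF-Y and of factors known in spermatids, were searched on both strands in 300 bases, from 250 before to 50 after the start, and a promoter counted once however many matches it held. CCAAT, the box that NF-Y binds, was in 2 of the 9 promoters, against 37.4% of all promoters. It lay 238 bases before the start used for Zpbp and 38 bases after that used for Spata16. Both starts lie inside the genes as annotated. TGACGT, the core of the element that CREM binds, was in Acrbp, 18 bases before the start, against 7.51% of all. GTTGCC, part of the X-box that RFX factors bind, was also in Acrbp, against 12.5% of all. TATAAA was in Spaca7, 242 bases before the start, against 13.6% of all. In the sequences above, the CREM element of Acrbp overlaps a capital CG near the right-hand end. Promoters without a match are only without these letters in this window.

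RNA of most acrosome genes was highest in round spermatids. This held for 7 of the 10 members, where 18.2% of the 15250 genes with a mean of at least 0.05 UMIs per 10000 were highest in RS among the 9 germ cell populations. All 10 members passed that minimum. Zpbp2 and Dpy19l2 were highest in D, as were 3.3% of all genes, and Spata16 was highest in mP/lP, as were 11.3%. No member was highest in ES, where 15.0% of all genes were.

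**Figure D1:**
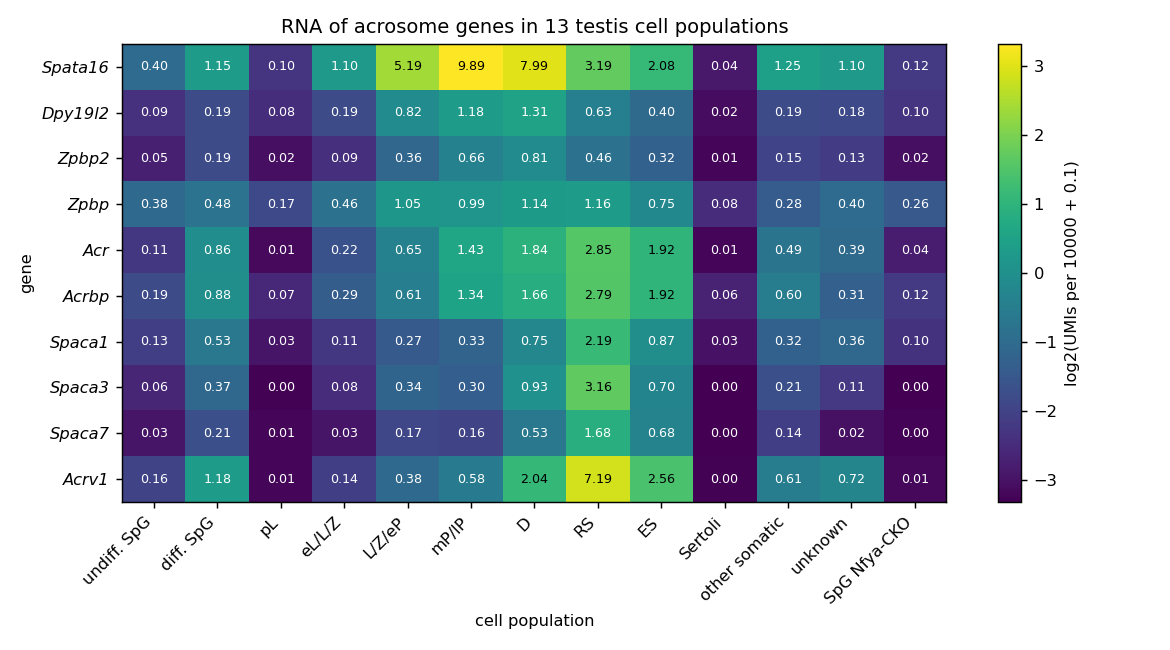
RNA of the 10 acrosome genes (rows) in the 13 populations (columns), with UMIs per 10000 printed in each cell and colour showing log2 of that value plus 0.1. Spata16, Dpy19l2 and Zpbp2 are brightest at mP/lP or D, and the 7 other genes at RS.

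Spata16 and Dpy19l2, whose products act in vesicle formation and anchoring, had more RNA in L/Z/eP, mP/lP and D than in spermatids. In pL and eL/L/Z they had less than in either spermatid population. Spata16 RNA was 0.402 UMIs per 10000 in undiff. SpG, 1.15 in diff. SpG, 0.102 in pL, 1.10 in eL/L/Z, 5.19 in L/Z/eP, 9.89 in mP/lP, 7.99 in D, 3.19 in RS and 2.08 in ES. It was thus already above 50% of its highest value in L/Z/eP, and 3.04-fold lower in RS than in mP/lP after adding 0.1 to both values. Dpy19l2 RNA was 0.0918, 0.193, 0.0831, 0.192, 0.823, 1.18, 1.31, 0.633 and 0.395 in the same order. Its level in RS was 1.74-fold below that in mP/lP. The round spermatid, in which the acrosome forms, thus gave these genes a lower share of UMIs than the middle and late pachytene spermatocyte. A short gene on the opposite strand, Cypt4, lies within Dpy19l2 and was at 0.901 UMIs per 10000 in RS. Whether counting used the strand is not given in the sources used here, so reads of the pair may not be told apart.

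The zona pellucida binding proteins differed from each other. Zpbp RNA was 0.379 in undiff. SpG, 0.481 in diff. SpG, 0.174 in pL, 0.463 in eL/L/Z, 1.05 in L/Z/eP, 0.994 in mP/lP, 1.14 in D, 1.16 in RS and 0.752 in ES. From L/Z/eP to RS it was nearly flat, with a log2 ratio of 0.21 for RS against mP/lP. Zpbp2 RNA was 0.0495, 0.185, 0.0211, 0.0891, 0.360, 0.655, 0.815, 0.462 and 0.315 in the same order, with a clearer maximum in D. Zpbp overlaps Spata48 on the opposite strand at its 5′ end, which was at 1.62 in RS and 0.270 in mP/lP.

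Acr and Acrbp, the protease precursor and its binding partner, had nearly parallel RNA. Acr RNA was 0.110 in undiff. SpG, 0.859 in diff. SpG, 0.0126 in pL, 0.217 in eL/L/Z, 0.655 in L/Z/eP, 1.43 in mP/lP, 1.84 in D, 2.85 in RS and 1.92 in ES. Acrbp RNA was 0.186, 0.878, 0.0684, 0.291, 0.613, 1.34, 1.66, 2.79 and 1.92 in the same order. Both were 2-fold higher in mP/lP than in L/Z/eP, by 2.02-fold for Acr and 2.01-fold for Acrbp, and they were the only 2 members past 2-fold at that step, against 1.38% of all genes. None was 2-fold lower (3.54%). Adding 1 in place of 0.1 left neither past 2-fold (0.111% of all genes). Their level in RS was a further 1.93-fold and 2.01-fold above mP/lP.

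The remaining members, Acrv1, Spaca1, Spaca3 and Spaca7, had RNA that was most restricted to round spermatids. Acrv1 RNA was 0.157 in undiff. SpG, 1.18 in diff. SpG, 0.00868 in pL, 0.137 in eL/L/Z, 0.385 in L/Z/eP, 0.580 in mP/lP, 2.04 in D, 7.19 in RS and 2.56 in ES. Spaca3 RNA was 0.297 in mP/lP, 0.932 in D, 3.16 in RS and 0.701 in ES. Spaca1 RNA was 0.334, 0.749, 2.19 and 0.874, and Spaca7 RNA 0.156, 0.530, 1.68 and 0.685, in the same order. In each of the 4 genes RS was the only germ cell population at 50% or more of the highest value. RS exceeded mP/lP by 10.7-fold for Acrv1, 8.21-fold for Spaca3, 6.94-fold for Spaca7 and 5.26-fold for Spaca1. The ratio of Acrv1 was above that of 99.6% of all genes.

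Across the 10 members, RS was at least 2-fold above mP/lP for 5 genes (17.6% of all genes) and at least 2-fold below for 1, Spata16 (9.36%). The median log2 ratio of the members was 0.98, against -0.08 over all genes, and their range was from -1.60 to 3.42. The members therefore did not share a single direction at the end of meiosis. In ES, by contrast, all 10 members were below RS, with a median log2 ratio of -0.58 against 0.13 over all genes. Acrv1, Spaca1, Spaca3 and Spaca7 were at least 2-fold lower in ES (10% of all genes), Spaca3 the most, by 4.07-fold, and no member was 2-fold higher (10.1% of all genes). Adding 1 in place of 0.1 left 2 of the 4 past 2-fold (1.74% of all genes). ES came almost wholly from Cre/+ (99.6% of 1195 cells), 59.7% of its cells shared a barcode with another library, and it held more RNA of the Sertoli marker Wt1 than RS did (2.45 against 0.424). The part of these in the difference was not tested.

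Accessibility split the members in another way. The scATAC-seq signal was highest in RS for 8 of 10 members among the germ cell populations, against 22.9% of the 29475 nuclear genes with a mean of at least 1. Zpbp2 was highest in pL (6.48% of all genes) and Dpy19l2 in ES (22.6%). ES had only 124 scATAC-seq cells paired with RNA, against 4835 for RS. The study took coverage around the start site as promoter accessibility, but whether these values per gene use that region is not given in the sources used here. RS was at least 1.5-fold above undiff. SpG for 7 members (33.1% of all genes) and 1.5-fold below for none (20.8%), with a median log2 ratio of 1.23 against 0.20 over all genes. TSS enrichment, a measure of scATAC-seq quality, averaged 8.67 in RS and 12.7 in undiff. SpG over cells paired with RNA, and its part in the differences was not tested.

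**Figure D2:**
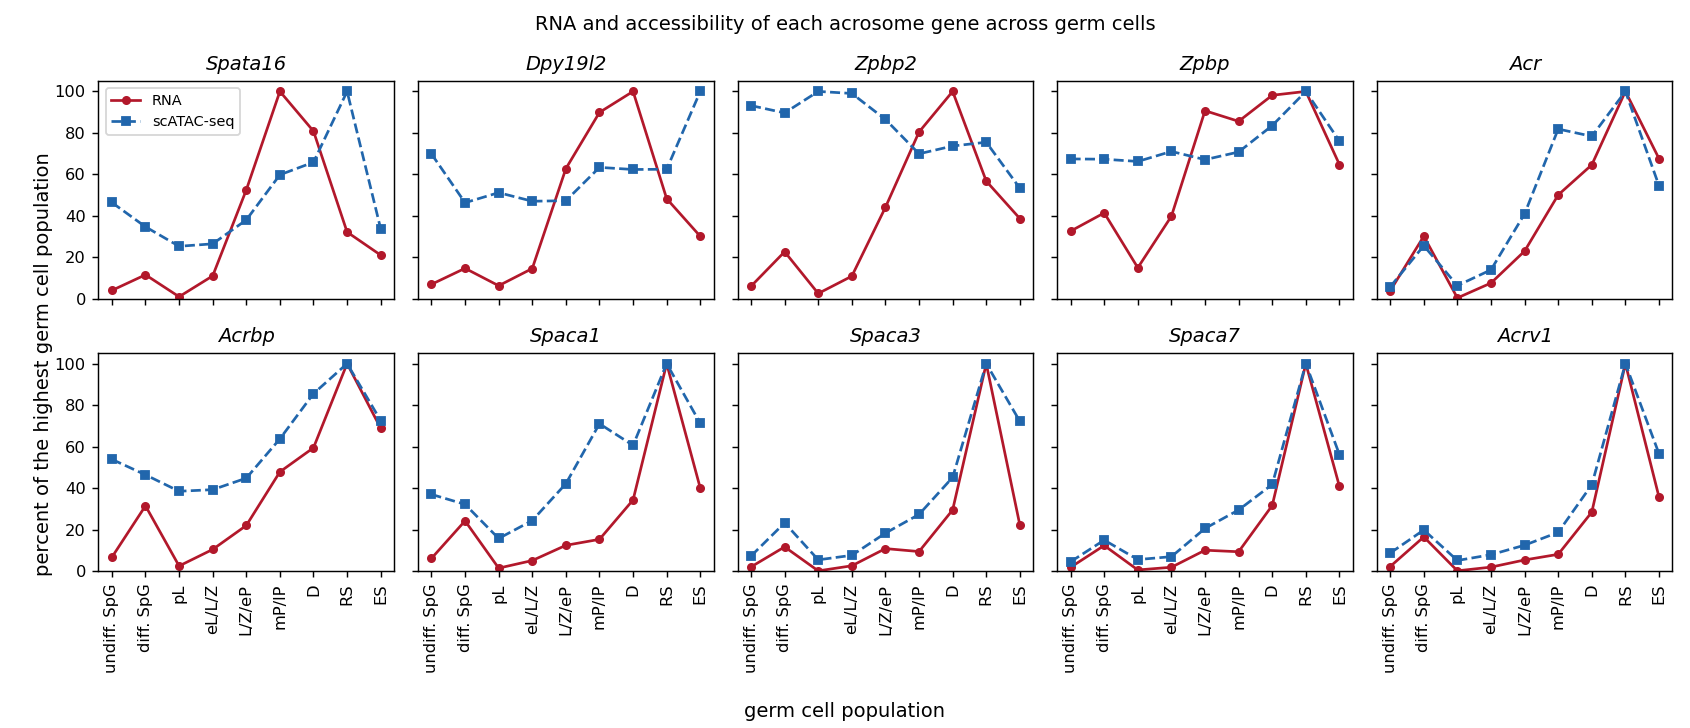
RNA (red, solid) and scATAC-seq signal (blue, dashed) of each acrosome gene in the 9 germ cell populations in order of differentiation, each as percent of its highest value among them. For Acr, Spaca3, Spaca7 and Acrv1 both lines peak at RS and are low at pL, whereas Zpbp2 and Zpbp had signal above 50% in every population.

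Acr, Acrv1, Spaca3 and Spaca7 had little signal in undiff. SpG and pL, and more in diff. SpG. The scATAC-seq signal of Acrv1 was 4.72 per 1000000 in undiff. SpG, 10.8 in diff. SpG, 2.77 in pL, 4.29 in eL/L/Z, 6.78 in L/Z/eP, 10.2 in mP/lP, 22.6 in D, 54.4 in RS and 30.7 in ES. In diff. SpG the signal was 17.4 for Acr, 11.2 for Spaca3 and 6.39 for Spaca7. RS was above undiff. SpG by 15.0-fold for Spaca7, 14.0-fold for Acr, 11.0-fold for Spaca3 and 9.69-fold for Acrv1 after adding 1 to both values. Acr was the earliest of these 4 genes, with 55.6 in mP/lP, which is 81.9% of its value in RS, against 18.7% for Acrv1, 27.3% for Spaca3 and 29.5% for Spaca7. The sequence shown for Acrv1 holds no CG and that for Spaca7 a single CG.

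Zpbp2, Zpbp, Acrbp and Dpy19l2 had signal above 50% of their highest value already in undiff. SpG. Their RNA first reached 50% of its highest value in mP/lP, L/Z/eP, D and L/Z/eP, in that order. Zpbp RNA was, however, already at 32.7% in undiff. SpG. Acrbp signal was below 50% from diff. SpG to L/Z/eP, with 38.5% in pL. Dpy19l2 signal was at 46.3% in diff. SpG, 51.2% in pL, 47.1% in eL/L/Z and 47.3% in L/Z/eP. Zpbp2 signal was 74.1 in undiff. SpG, 71.3 in diff. SpG, 79.6 in pL, 78.8 in eL/L/Z, 68.8 in L/Z/eP, 55.6 in mP/lP, 58.6 in D, 60.1 in RS and 42.4 in ES. It was also 61.7 in Sertoli cells, in which Zpbp2 RNA was 0.00670 UMIs per 10000. Zpbp likewise had 43.3 in Sertoli cells against 66.7 in RS, while Acrbp had 11.5 against 79.1. RS was below undiff. SpG for 2 members, Zpbp2 (0.813-fold) and Dpy19l2 (0.897-fold), as for 40.1% of all genes. Dividing each population by its median gene, an alternative added after the data were seen, put RS above undiff. SpG for both (log2 ratios of 0.13 and 0.26). That scaling moves all genes together, and their median went from 0.20 to 0.61, so both members stayed below the median over all genes. The share of all genes below undiff. SpG was not counted under it. Spaca1 and Spata16 stood between the groups, with RS 2.64-fold and 2.09-fold above undiff. SpG.

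Over the 13 populations, Spearman's rho between RNA and scATAC-seq signal was from -0.34 for Zpbp2 to 0.95 for Acr. It was 0.89 for Spaca7, 0.87 for Spaca3, 0.77 for Acrv1, 0.75 for Spaca1, 0.74 for Acrbp, 0.55 for Zpbp, 0.54 for Spata16 and 0.26 for Dpy19l2. Over the 9 germ cell populations alone it was from -0.80 for Zpbp2 to 1 for Acrv1, with 0.90 for Acr. These are descriptions over populations that come from the same 5 libraries. Of the 343866 scATAC-seq cells, 31569 also had an RNA population, and which of them lie behind the values per gene is unknown.

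**Figure D3:**
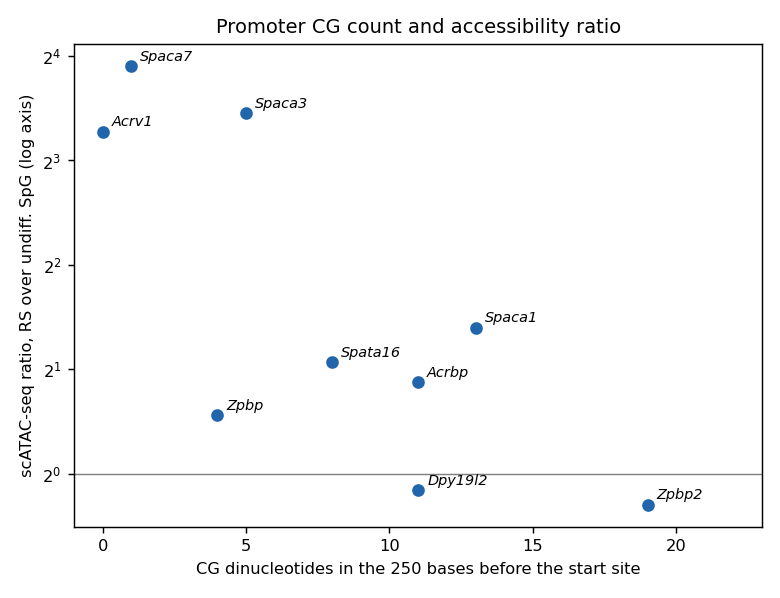
Number of CG dinucleotides in the 250 bases before the start site (horizontal) and scATAC-seq signal in RS over undiff. SpG after adding 1 to both (vertical, log axis) for the 9 members with a promoter sequence. Acrv1, Spaca7 and Spaca3, with 0, 1 and 5 CG, are above 9-fold, and Zpbp2, with 19, is below 1, while Zpbp, with 4, is at 1.47-fold.

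Among the 9 members with a promoter sequence, which leave out Acr (14.0-fold), those with 0, 1 and 5 CG had the widest ratios of signal between RS and undiff. SpG (9.69, 15.0 and 11.0). The 5 members with 8 to 13 CG, or with 19, were at 2.64-fold or less. Zpbp did not follow this order, with 4 CG and 1.47-fold. The windows of Zpbp, Dpy19l2 and Spata16 lie at start sites inside the genes as annotated, whose 5′ ends are at 11464223, 24696457 and 26637620. With 9 genes and a measure chosen after the values were seen, this is a description.

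UMIs of acrosome genes were also counted in the populations named as premeiotic, and their level was not ordered by stage. All 10 members were higher in diff. SpG than in pL, the stage that follows, 9 of them at least 2-fold (10.9% of all genes, while 1.27% were lower), with a median log2 ratio of 2.23 against 0.03 over all genes. Acrv1 stood at 1.18 UMIs per 10000 in diff. SpG and 0.00868 in pL, an 11.8-fold difference after adding 0.1. Dpy19l2 was the exception at 1.60-fold, and adding 1 in place of 0.1 left 1, Acrv1, past 2-fold (0.774% of all genes). Relative to RS, the members were at 11.7% to 41.4% in diff. SpG (median 30.3%), 1.82% to 32.7% in undiff. SpG (median 6.38%) and 0.0873% to 15.0% in pL (median 1.93%).

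**Figure D4:**
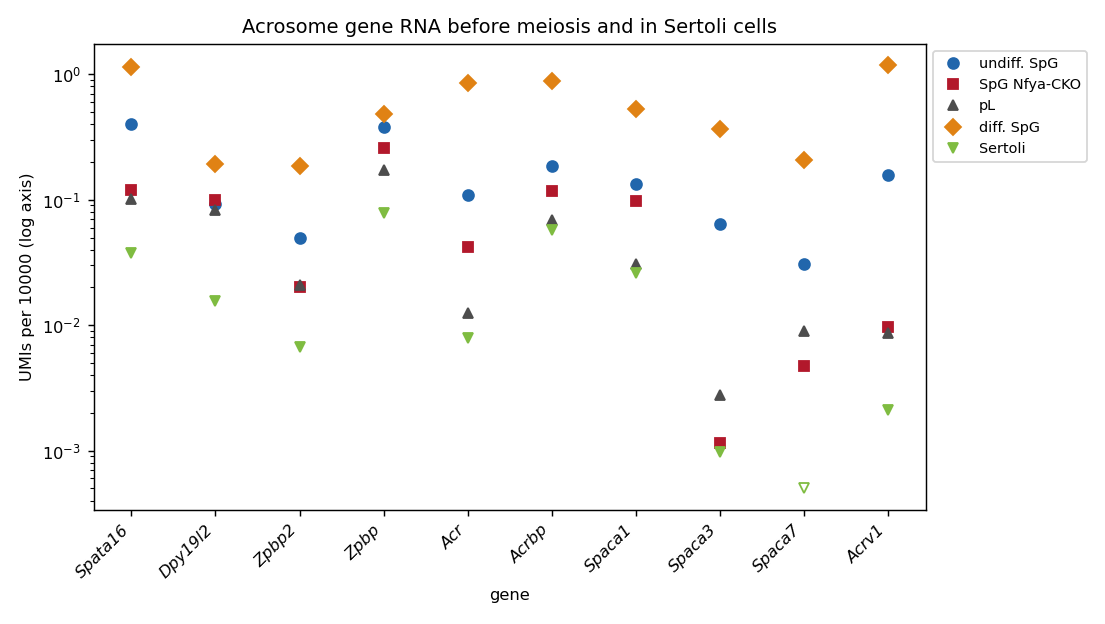
RNA of the 10 acrosome genes in 5 populations that precede or lack meiotic progression, in UMIs per 10000 on a log axis. The open triangle marks Spaca7 in Sertoli cells, which was at 0 and is drawn at the bottom of the axis, and diff. SpG (diamonds) are the highest of these 5 for every gene, while other somatic cells, which are not drawn, exceeded diff. SpG for Spata16 (1.25 against 1.15).

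The make-up of the populations moved with these levels in part. Cells from 25 dpp or Cre/+, the libraries that hold RS, were 96.1% of diff. SpG, 29.6% of undiff. SpG, 2.50% of pL and 0.490% of Sertoli cells. By library label, this order did not hold for other somatic cells, with 14.5%, or for SpG Nfya-CKO, with 0%, where the members had a median of 3.96% of RS. In Sertoli cells the members were at 0% to 6.72% of RS (median 1.19%), and Spaca7 was at 0, where 3 UMIs in cells of median depth would give 0.000843 UMIs per 10000. In other somatic cells they were at 6.52% to 39.2% (median 19.4%). Genes of sperm chromatin, the protamines and transition proteins Prm1, Prm2, Prm3, Tnp1 and Tnp2, which are made late in spermatids, had medians of 32.4% in diff. SpG, 14.7% in other somatic cells, 1.73% in undiff. SpG and 0.0393% in Sertoli cells. Barcodes shared with another library were 49.1% of diff. SpG, 70.1% of other somatic cells, 32.5% of undiff. SpG, 19.0% of pL and 6.56% of Sertoli cells. They were 35.6% of SpG Nfya-CKO, each shared with a Cre/+ cell. Since the matrix pools libraries, no value within a library could be had, and the part of library make-up, shared barcodes and free spermatid RNA in the premeiotic levels was not tested.

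In SpG Nfya-CKO, acrosome gene RNA lay between undiff. SpG and pL for Acrv1, Acr, Acrbp, Spaca1, Zpbp and Spata16. The comparison with undiff. SpG concerns cells that precede the arrest at meiotic entry for which the mutant was studied. All cells of SpG Nfya-CKO came from 8-week mice, whereas 7.89% of undiff. SpG (102 of 1292 cells) came from Cre/+ and 646 cells from 11 dpp, so genotype and age cannot be told apart here. Acrv1 RNA was 0.00975 UMIs per 10000 in SpG Nfya-CKO, 0.157 in undiff. SpG, 1.18 in diff. SpG and 0.00868 in pL. Spata16 RNA was 0.119, 0.402, 1.15 and 0.102 in the same order. These were the 2 members at least 2-fold below undiff. SpG (2.34-fold and 2.29-fold after adding 0.1), against 3.08% of all genes. They numbered 5 after adding 0.01 (9.6% of all genes) and 0 after adding 1 (0.295%), and so depend on how low values are treated. No member was 2-fold higher (4.09% of all genes).

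Of the 10 members, 9 were lower in SpG Nfya-CKO than in undiff. SpG, with a median log2 ratio of -0.41 against 0.01 over all genes, and Dpy19l2 was 1.04-fold higher. The choice of control population changed this result. Against eL/L/Z, a control added after the data were seen, 3 members were at least 2-fold lower (6.65% of all genes), with a median of -0.75. Against diff. SpG, 8 members were at least 2-fold lower (10.5% of all genes), with a median of -1.92. Against pL none was (4.73%), with a median of 0.12, close to the 0.08 over all genes. The share of all genes above 0 was not counted for this control, against which 7 members were higher in SpG Nfya-CKO. Among these were Spaca1 (0.60), Zpbp (0.39), Acrbp (0.37), Acr (0.34), Spata16 (0.12) and Acrv1 (0.01), all of which were lower against undiff. SpG. Spaca3 RNA in SpG Nfya-CKO was 0.00114, close to the 0.00111 that a single UMI in a cell of median depth would add. No cell of this population was labelled 25 dpp or Cre/+, but 35.6% of its cells had a barcode that also named a Cre/+ cell. Its RNA of the Leydig cell marker Insl3 was 39.8 UMIs per 10000, against 0.0640 in undiff. SpG and 177 in other somatic cells, and all 3 Leydig markers were at least 2-fold higher than in undiff. SpG. The part of other cells' RNA in the values of this population was not tested.

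Accessibility of acrosome genes in SpG Nfya-CKO was close to that in undiff. SpG in the median, while mean TSS enrichment was 7.99 against 12.7, whose part was not tested. Of the 10 members, 5 were below undiff. SpG, against 41.7% of all genes, and the median log2 ratio was -0.01 against 0.09 over all genes. Spaca7 signal was 0.534 per 1000000 in SpG Nfya-CKO and 1.92 in undiff. SpG, and Spaca3 signal 1.58 and 3.51. These were the 2 members at least 1.5-fold lower (1.90-fold and 1.75-fold after adding 1, against 4.25% of all genes), and both had little signal in either population. No member was 1.5-fold higher (16.5% of all genes), the highest ratio being 1.34-fold for Dpy19l2, at 51.5 against 38.1. Zpbp, the member with a CCAAT before the start used for it, which lies inside the gene as annotated, was 1.25-fold higher. Dividing by the median gene put 7 members below undiff. SpG, and counting mitochondrial genes in the total put 6 below, with Acrv1 changing side in both and Acrbp in the first. These scalings move all genes together, and the median over all genes went from 0.09 to -0.15 and to -0.03. The counts therefore say nothing of the members in particular, and the share of all genes below undiff. SpG was not counted under these scalings.

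Other genes of the acrosome, from 3 lists chosen by function, placed the 10 members among their neighbours. Of 17 further genes of acrosomal content and membrane, 13 were highest in RS (18.2% of all genes), 2 in ES, 1 in mP/lP and 1 in D, and 14 were at least 2-fold higher in RS than in mP/lP (17.6% of all genes), with a median log2 ratio of 2.55. Spaca5, counted in the 13 and in the 14, did not reach the minimum mean of the genes behind these shares. Of the 17, 9 were at least 2-fold lower in ES than in RS (10% of all genes). Pcsk4, a proprotein convertase of the sperm surface and acrosome, was at 5.71 in RS and 4.16 in ES, and Tmem190 at 2.21 and 0.964. Spink2, an inhibitor of acrosomal proteases, was also highest in mP/lP, but nearly flat from there on, with 2.73 in mP/lP, 2.37 in D, 2.33 in RS and 2.35 in ES. Dkkl1 was at 3.03 in RS and 3.84 in ES, and Prss37 at 0.996 and 1.82.

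The 9 genes of the perinuclear theca and acroplaxome, the cytoskeletal layer between acrosome and nucleus, had a later pattern. Of these, 8 were highest in ES (15.0% of all genes), and 8 were at least 2-fold higher in RS than in mP/lP (17.6%). Actrt1 and Ccin, both counted as highest in ES, did not reach the minimum mean of the genes behind these shares. Ccin was also counted as higher in RS than in mP/lP. Cylc2, a cylicin of this layer, was at 2.71 in RS and 3.49 in ES. Capza3, an actin capping subunit, was at 0.668 in RS and 1.44 in ES, and the actin-related Actrt2 at 0.344 and 1.20. Cylc1 was at 0.750 and 1.23 and Actl9, at 0.470 in RS, was higher in ES by 0.95 on the log2 scale. None of the 10 members had its maximum there. A further pair of lists showed both patterns. Among 6 sperm-egg fusion genes such as Izumo1, 5 were highest in RS (18.2% of all genes) and 1 in ES. Tmem95, counted in these 5, did not reach the minimum mean either. Among 9 genes of the outer dense fibre and fibrous sheath, 5 were highest in ES (15.0%), 2 in RS and 2 in mP/lP.

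The 14 genes of vesicle formation, which mostly serve membrane traffic in many cell types, had no common stage. Their maxima were in RS for 4, in ES for 2, in diff. SpG for 2, in pL for 2, in eL/L/Z for 2, in L/Z/eP for 1 and in mP/lP for 1. Of the 14, 2 were at least 2-fold higher in RS than in mP/lP (17.6% of all genes) and 3 at least 2-fold lower (9.36%). Ssh2, a cofilin phosphatase, was at 8.20 in mP/lP and 3.26 in RS, and Vps13b, a lipid transfer protein of the Golgi, at 2.06 in mP/lP and 3.87 in RS. Csnk2a2 and Vps54 were highest in eL/L/Z (1.87 and 1.60), Agfg1 in diff. SpG (1.33) and Smap2 in pL (1.32).

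The genes whose RNA was most like the members' mean pattern over the 13 populations were 4930519G04Rik, Plcd4, Lrrc36, Cfap206, Lrrc34, Mycbpap, Dnaaf3 and Tekt1, with Pearson's r of 0.99 each over 10376 genes that averaged 0.2 or more. Of the members themselves, Acr had the highest r to that mean (0.99), which includes it, and Dpy19l2 the lowest (0.89). Plcd4 RNA was 1.21 UMIs per 10000 in mP/lP and 2.26 in RS, and Tekt1 0.774 and 1.01. Over the 9 germ cell populations alone, 2 of these 8 genes, Plcd4 and Lrrc34, were again among the 8 most alike. The populations share libraries, and r is given as a description.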

How the data were processed

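For scRNA-seq, the authors aligned reads to mm10 with STAR (2.7.10b), counted UMIs, and with Seurat (5.2.1) kept cells of 500 genes or more and less than 5% mitochondrial UMIs, without doublets. For scATAC-seq, the authors used BWA (0.7.12) and ArchR (1.0.3), with a minimum TSS score of 4 and 1000 fragments per cell. The authors deposited UMI and fragment counts per cell, TSS enrichment as a ratio of coverage, and 2 gene matrices on a natural log scale. Per the values, these matrices hold the log of 1 plus the mean per 10000 of a population, pooled over libraries. In 12 of 13 populations the smallest RNA values matched a mean over the number of cells in the table, and in 0 for scATAC-seq, whose cells per value are therefore unknown.

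Values were returned to the linear scale with Python 3.11.15, numpy 2.4.6 and pandas 2.3.3. scATAC-seq values were rescaled to 1000000 over nuclear genes, since mitochondrial genes took from 31.2% to 64.5%. Log2 ratios used a pseudocount of 0.1 (RNA) or 1 (scATAC-seq), and genes behind the shares of all genes needed a mean of at least 0.05 or 1. List genes were counted without this minimum, which Actrt1, Ccin, Spaca5 and Tmem95 did not reach. Changes were counted by size, 2-fold for RNA and 1.5-fold for scATAC-seq. The ratio code was tested on simulated data. Named genes were all 10 members and, from each list, up to 6 genes at 2 per 10000 or more in RS or ES, or highest in a population other than RS with at least 1 per 10000 there. Members and lists were chosen with earlier results of these data known. Alternatives covered pseudocounts, scaling, filters, the control population and the promoter window.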

Additional observations from a re-analysis of the deposited data

How the results depend on the processing

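No paired analysis was possible because each condition was 1 library per assay and the gene values were pooled over libraries, and no library could be left out for the same reason. With a pseudocount of 1 the members at least 2-fold higher in mP/lP than in L/Z/eP numbered 0 in place of 2 (0.111% of all genes), those at least 2-fold lower in ES than in RS 2 in place of 4 (1.74%), and those at least 2-fold higher in diff. SpG than in pL 1 in place of 9 (0.774%), where the median log2 ratio was 0.51, and 3.51 with a pseudocount of 0.01. In the comparison of SpG Nfya-CKO with undiff. SpG, the median log2 ratio was -1.09 with a pseudocount of 0.01, -1.92 against diff. SpG, -0.75 against eL/L/Z and 0.12 against pL, and the members at least 2-fold lower numbered 5 with a pseudocount of 0.01, 0 with a pseudocount of 1, 8 against diff. SpG, 3 against eL/L/Z and 0 against pL, where 9.6%, 0.295%, 10.5%, 6.65% and 4.73% of all genes were in that order. Against pL the ratios of Acrv1 (0.014), Spata16 (0.12), Acr (0.34), Acrbp (0.37), Zpbp (0.39) and Spaca1 (0.60) all turned from negative to positive. The median log2 ratio over all genes was 0.08 against pL and 0.01 against undiff. SpG. A pseudocount acts most on low values, and the cause of the difference between controls was not tested. Dividing each population by its median gene moved the median log2 scATAC-seq ratio over all genes from 0.20 to 0.61 for RS against undiff. SpG, and from 0.09 to -0.15 for SpG Nfya-CKO. Of the 73 alternative values that answer a comparison, 61 stayed within 1.5-fold and the direction, 11 moved and 1 reversed, and of 276 others 65 moved and 2 of the members called at 2-fold reversed. The number of UMIs behind a gene value is unknown, which limits low values most.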
